A study of Mus musculus with 9 samples.

Results

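Craniofacial EGFP- cells (Cn, 2 arrays) were compared with trunk EGFP- cells (Tn, 2 arrays), the non-crest fractions of the 2 regions, which make up 4 of the 9 arrays of the series. The arrays were taken by their group labels. RNA of sorted cells from mouse embryos at E12.5 had been hybridised to 1-colour 3D-Gene arrays labelled with Cy5. The other 5 arrays held the EGFP+ cells of the same regions, craniofacial (Cp, 2 arrays) and trunk (Tp, 3 arrays, of which 2 entered the fit). All 4 groups came from embryos that carried both P0-Cre and the CAG-CAT-EGFP reporter, on a mixed C57/BL6J and ICR background. Cre was driven by the promoter of myelin protein zero, and EGFP is switched on in a cell and its descendants after recombination. EGFP- cells are therefore defined by what was not labelled. They are a mixture of the neural tube, the surface and gut epithelia, mesoderm and blood, and they also hold any crest cell in which Cre did not act. The study notes slight Cre activity in the notochord. The heart fields had been cut away from the trunk, and no sex or number of embryos per array was found in the sources used here.

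The early embryo is patterned from head to tail by transcription factors. The anterior neural plate uses homeobox factors of the Otx, Emx and Dlx families to set up the forebrain and the eyes. The Hox genes, which lie in 4 clusters and are switched on in order along each cluster, mark the hindbrain, spinal cord and trunk mesoderm, and are silent in the forebrain. Crest-derived mesenchyme builds much of the face, whereas the trunk skeleton and the limbs come from mesoderm, which is not crest-derived.

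Values below are the authors' processed intensities on the log2 scale, so that 1 unit is a change of 2-fold. A probe counted as detected on an array when its spot exceeded the mean of the blank spots plus 2 SD. On the 4 arrays 72.8% to 90.2% of 23473 probes were detected, the median spot was 2.28 to 3.21 times the blank level, and Cn replicate 2 had the lowest of both. Replicate 1 of both groups was read in 1 scan, while replicate 2 of Cn and replicate 2 of Tn were read in separate scans, so in the second pair region and scan cannot be told apart. The root mean square difference between replicates was 0.505 in Cn and 0.556 in Tn, against 0.645 between Cn and Tn within the shared scan. In bulk RNA of sorted cells, fewer cells of a type and less RNA per cell cannot be told apart.

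The question put to these arrays was which transcripts differ between head and trunk among cells that are not labelled as crest. Most named regulators of the forebrain, the eye and the branchial arches were higher in Cn than in Tn, and every named Hox gene was lower. Of the named genes of the spinal cord, the limb and the axial skeleton, those that passed the test were lower in Cn. Of 21807 probes tested in limma, 286 passed an adjusted p of 0.05 (1.31%), with 120 higher in Cn (0.55%) and 166 lower (0.761%). Their smallest difference was 1.18 and their median size 2.08, and 159 of them exceeded 2. The 286 probes had no overlap between the 2 Cn and the 2 Tn arrays. Each therefore had the same direction in the shared scan by necessity, which is no separate check. Among all tested probes 40.1% did not overlap, 9.61% higher and 30.4% lower in Cn, so with 2 arrays per group lack of overlap is common. Quantile normalization, which moved the median difference of all probes from -0.16 to -0.004, turned the share of higher calls from 42.0% to 54.4%. A background taken from the ring around each spot left 5 probes higher and 2 lower (0.0321%), 4 of them among the 286. The logs of ring and spot correlated at 0.929 to 0.985 across spots of these arrays. Without Cn replicate 1, 54 probes were higher and 70 lower, without Tn replicate 1, 53 and 100, and without Tn replicate 2, 72 and 93.

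**Figure D1:**
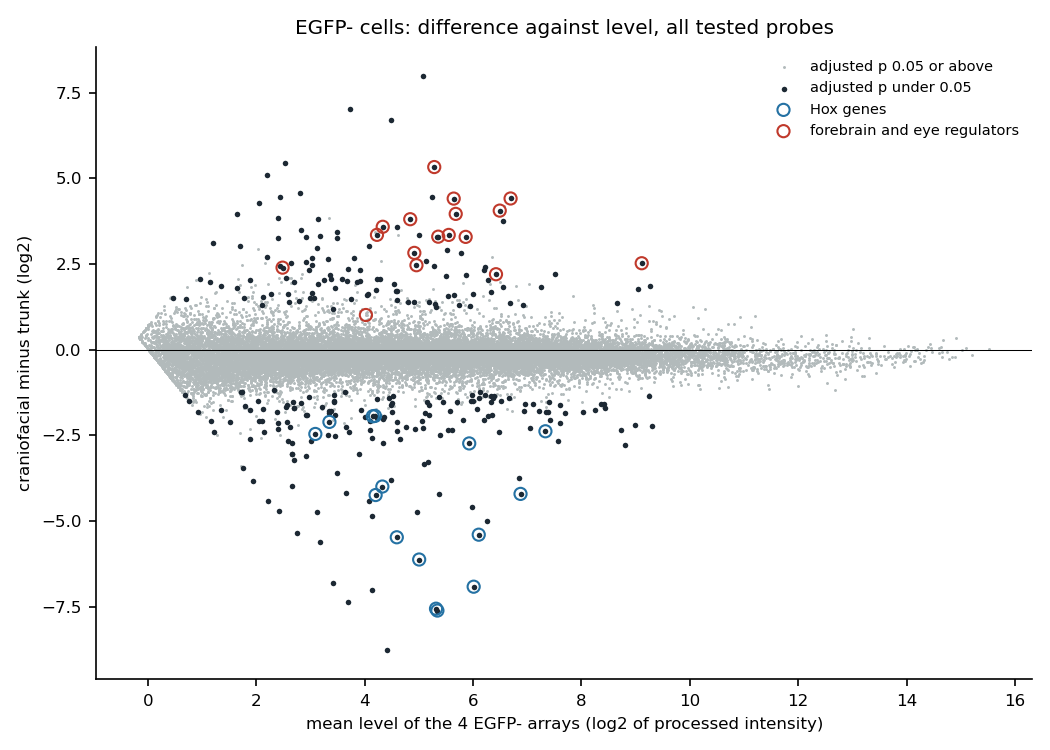
Difference between Cn and Tn (vertical axis, log2) against the mean level of the 4 EGFP- arrays (horizontal axis, log2 of the processed intensity) for the 21807 tested probes. Black points are the 286 probes with adjusted p under 0.05, and rings mark the named Hox genes, all lower in Cn, and the forebrain and eye regulators, all above 0.

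Names could be given to 304 probes of 300 genes, all of them tested. These are probes of a list that the study drew up from 8 of these arrays by a test across the groups and a minimum change, so their counts are no independent evidence of a direction. Of the 304, 33 were higher in Cn, 42 were lower and 229 did not pass. Their median difference was -0.20, beside -0.16 over all tested probes. The other 211 of the 286 probes that passed, 87 higher and 124 lower, carry no gene name here and include 110 with a difference over 2, so the genes described below are a part of what differed.

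All 15 named Hox genes were lower in Cn, with differences of -7.62 to -1.93 and a median of -4.21. They came from all 4 clusters, with 5 genes of Hoxa (mouse chromosome 6), 5 of Hoxb (11), 3 of Hoxc (15) and 2 of Hoxd (2). The median differences were -2.74 in Hoxa, -6.13 in Hoxb, -4.21 in Hoxc and -4.74 in Hoxd. The proteins are DNA-binding homeodomain factors, and the named members ran from Hoxa2, of the hindbrain end of its cluster, to Hoxa10 and Hoxd10, of the lumbar end.

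Hoxb6, a gene of the middle of the Hoxb cluster, measured 1.35 and 1.72 on the Cn arrays and 9.11 and 9.20 on the Tn arrays. The difference was -7.62 (SE 0.29, adjusted p = 3.19e-06 in limma), and the gene was detected on 1 of the 2 Cn arrays. Its neighbour Hoxb7 measured 0.98 and 2.10 in Cn and 8.80 and 9.40 in Tn, a difference of -7.56 (SE 0.45, adjusted p = 3.57e-05). Both genes were near the bottom of the scale in the head and bright in the trunk, and the Cn arrays differed more from each other for Hoxb7 than for Hoxb6.

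Hoxa5, which patterns the neck and upper thorax, measured 2.48 and 2.63 in Cn and 9.39 and 9.56 in Tn (difference -6.92, SE 0.25, adjusted p = 3.19e-06). Hoxb5 measured 1.86 and 2.03 in Cn, where 1 of 2 arrays detected it, and 8.25 and 7.89 in Tn (difference -6.13, SE 0.25, adjusted p = 4.17e-06). Hoxd4 measured 1.79 and 1.92 in Cn and 7.16 and 7.50 in Tn (difference -5.48, SE 0.33, adjusted p = 3.9e-05). In each of these genes the replicates lay close together and the groups far apart. Hoxd4 was also the Hox gene that passed with the ring as background, at a difference of -1.41 (adjusted p = 0.042 in limma).

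Hoxa10, a gene of the posterior trunk and hindlimb, measured 3.41 and 3.40 in Cn and 8.76 and 8.85 in Tn, a difference of -5.40 (SE 0.25, adjusted p = 9.21e-06 in limma). Hoxd10, its paralog, measured 2.34 and 2.32 in Cn and 6.51 and 6.15 in Tn (difference -3.99, SE 0.27, adjusted p = 9.11e-05). Hoxc9 measured 4.62 and 4.93 in Cn and 8.59 and 9.37 in Tn (difference -4.21, SE 0.33, adjusted p = 0.000218). The arrays of the 2 regions did not overlap for these more caudal genes either, as for 40.1% of all tested probes. Hoxc5 differed by -4.24 (SE 0.35, adjusted p = 0.000321), with its Tn arrays at 6.77 and 5.88.

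The smaller differences lay in Hoxa2, Hoxb8, Hoxa7, Hoxb3, Hoxa6 and Hoxc4, at -2.74, -2.46, -2.38, -2.11, -1.94 and -1.93, with adjusted p of 0.00113 to 0.00636 in limma. Hoxa2, the most anterior named member, which is active in the hindbrain and the second branchial arch, measured 4.73 and 4.40 in Cn and 7.66 and 6.94 in Tn. Hoxa7 measured 6.22 and 6.08 in Cn and 8.59 and 8.46 in Tn, so that its probe gave clear signal in the head as well. Hoxa6 and Hoxc4 lost the call without Cn replicate 1, and Hoxc4 without Tn replicate 1. The summed signal of the 15 probes was 188 and 190 in Cn and 3841 and 4271 in Tn. All 15 differences stayed below 0 with the ring as background (median -1.27, 1 call) and all 15 passed with the scan as a block (median -4.07).

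The stretches of 250 bases before the transcription start are shown for the 2 Hox genes with the lowest differences for which RefSeq gave 1 promoter entry, since these genes moved together. The build is GRCm38.p6 and the sequences come from RefSeq. Capitals mark matches on either strand to the TATAAA box, the CCAAT box, the GGGCGG box, the homeobox core TAATTA and the E-box CAGCTG.
Hoxa5 (chr6:52204588-52204837, minus strand): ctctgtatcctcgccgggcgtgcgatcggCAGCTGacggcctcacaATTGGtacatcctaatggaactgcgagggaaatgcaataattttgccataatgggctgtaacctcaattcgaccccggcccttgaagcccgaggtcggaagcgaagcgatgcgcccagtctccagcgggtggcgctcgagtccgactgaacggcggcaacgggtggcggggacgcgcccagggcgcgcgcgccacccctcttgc
Hoxd4 (chr2:74721728-74721977, plus strand): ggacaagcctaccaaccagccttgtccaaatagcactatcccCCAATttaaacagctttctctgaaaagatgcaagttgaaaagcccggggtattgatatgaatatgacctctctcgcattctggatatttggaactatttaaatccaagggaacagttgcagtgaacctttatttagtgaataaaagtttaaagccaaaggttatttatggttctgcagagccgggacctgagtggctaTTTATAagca
The Hoxa5 stretch held CAGCTG 221 bases before the start and CCAAT, on the opposite strand, 204 before it. The Hoxd4 stretch held CCAAT 208 bases before the start and TATAAA on the opposite strand 10 before it. Over 32851 mouse stretches of the same length, CCAAT occurred in 33.8%, CAGCTG in 13%, TATAAA in 12.4%, GGGCGG in 32.7% and TAATTA in 4.84%. These are matches of letters and not sites shown to be used.

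**Figure D2:**
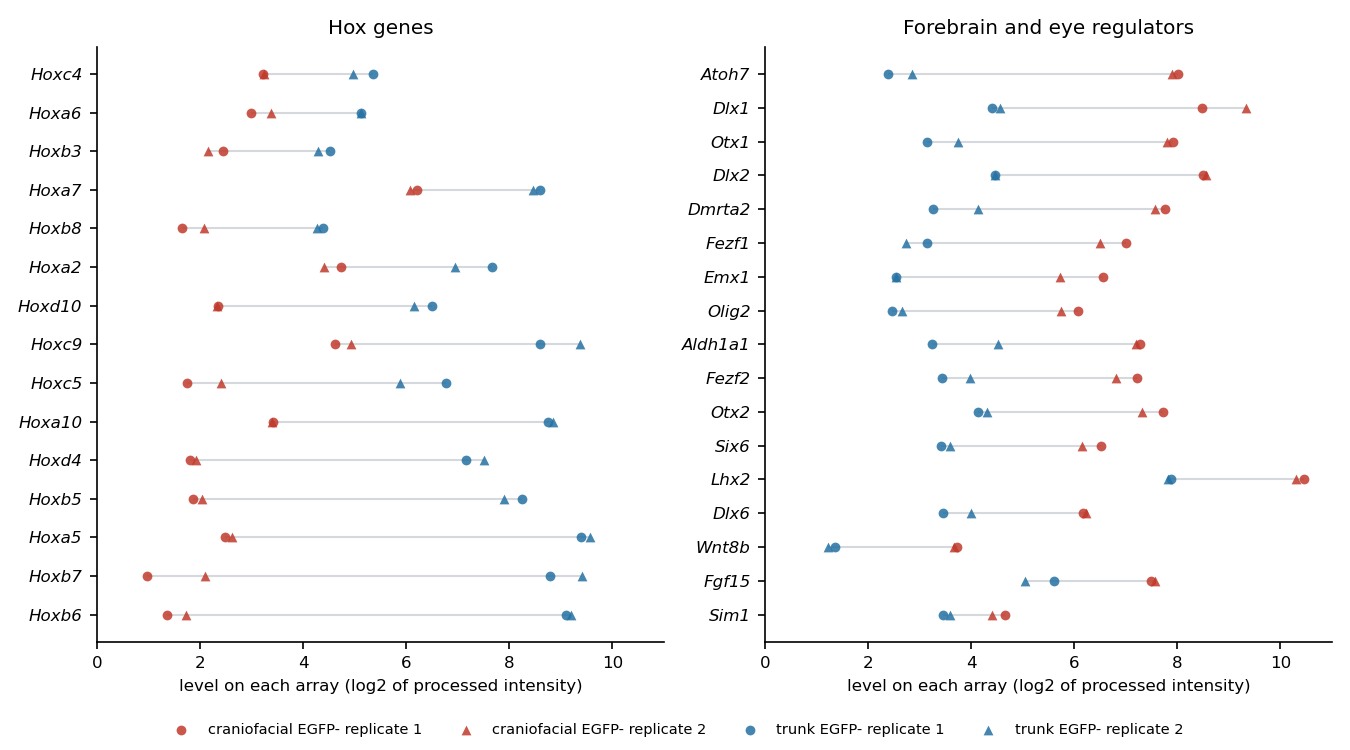
Level on each array (log2 of the processed intensity) of the 15 named Hox genes (left) and the 17 named forebrain and eye regulators (right). Red points are the 2 Cn arrays, blue points the 2 Tn arrays, circles replicate 1 and triangles replicate 2. The groups do not overlap for any of these genes, with Hoxb6 and Atoh7 at the 2 extremes. Among all tested probes 40.1% did not overlap, and these genes come from a list chosen on these arrays.

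Of 17 named regulators of the forebrain and the eye, 16 were higher in Cn and none was lower, with a median difference of 3.35. Sim1, a factor of the hypothalamus and of a class of ventral spinal neurons, was the exception. It measured 4.66 and 4.41 in Cn and 3.45 and 3.59 in Tn, a difference of 1.01 that did not pass (SE 0.26, adjusted p = 0.13 in limma). The summed signal of the 17 probes was 4012 and 3913 in Cn and 445 and 462 in Tn. All 17 differences stayed above 0 with the ring as background, at a median of 1.12 with 2 calls, and 15 genes passed with the scan as a block.

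Among genes of the eye, Atoh7, the basic helix-loop-helix factor needed for retinal ganglion cells, measured 8.01 and 7.90 in Cn and 2.38 and 2.86 in Tn (difference 5.33, SE 0.25, adjusted p = 1.06e-05 in limma). Aldh1a1, a retinaldehyde dehydrogenase of the dorsal retina, measured 7.27 and 7.19 in Cn and 3.23 and 4.52 in Tn (difference 3.35, SE 0.38, adjusted p = 0.00231). The Tn arrays were further apart for Aldh1a1 than for the other genes of this group, yet both stayed below Cn. Six6, a homeobox factor of the optic vesicle and pituitary, measured 6.52 and 6.14 in Cn and 3.42 and 3.59 in Tn (difference 2.83, SE 0.26, adjusted p = 0.000589).

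The stretch before the start of Atoh7 held TATAAA 30 bases before the start, GGGCGG on the opposite strand 72 before it and CCAAT on the opposite strand 245 before it. It is printed as the gene with the greatest positive difference that had 1 RefSeq promoter entry, with the same capitals as above.
Atoh7 (chr10:63099535-63099784, plus strand): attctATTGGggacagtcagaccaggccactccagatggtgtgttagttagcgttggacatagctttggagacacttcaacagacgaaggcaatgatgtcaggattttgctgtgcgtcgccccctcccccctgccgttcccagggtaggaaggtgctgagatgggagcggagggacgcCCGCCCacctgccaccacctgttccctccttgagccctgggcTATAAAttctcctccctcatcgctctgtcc

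The Otx and Emx factors divide the rostral brain. Otx1 measured 7.91 and 7.79 in Cn and 3.14 and 3.74 in Tn, a difference of 4.41 (SE 0.30, adjusted p = 8.95e-05 in limma). Otx2, which is needed for the whole anterior head, measured 7.71 and 7.31 in Cn and 4.14 and 4.30 in Tn, a difference of 3.29 (SE 0.25, adjusted p = 0.000195). Emx1, a homeobox factor of the dorsal telencephalon, measured 6.55 and 5.71 in Cn and 2.54 on both Tn arrays, a difference of 3.59 (SE 0.30, adjusted p = 0.000331). In all 3 genes both Cn arrays lay well above both Tn arrays.

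Dmrta2, a regulator of cortical progenitors, differed by 3.97 (SE 0.32, adjusted p = 0.000291 in limma), with Cn at 7.77 and 7.56 and Tn at 3.26 and 4.13. The zinc finger factors Fezf1 and Fezf2, of the early forebrain and of deep-layer cortical neurons, differed by 3.81 and 3.30 (adjusted p = 0.000132 and 0.000425). With the ring as background, Fezf2 and Aldh1a1 were the members of this group that passed, at 1.28 and 1.51 (adjusted p = 0.0375 and 0.0361). Lhx2, a LIM homeobox factor of the eye field and cortex that also acts in limb buds, was well detected in both regions, at 10.45 and 10.30 in Cn and 7.88 and 7.82 in Tn. The difference was 2.53 (SE 0.24, adjusted p = 0.000714).

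Secreted factors of the forebrain were higher too. Wnt8b, of the cortical hem, measured 3.72 and 3.66 in Cn and 1.36 and 1.22 in Tn (difference 2.40, SE 0.25, adjusted p = 0.00147 in limma). Fgf15 measured 7.49 and 7.57 in Cn and 5.60 and 5.05 in Tn (difference 2.20, SE 0.29, adjusted p = 0.00551), so the trunk also carried clear signal. Olig2, which marks progenitors of motor neurons in the spinal cord as well as of the ventral forebrain, measured 6.07 and 5.74 in Cn and 2.46 and 2.65 in Tn (difference 3.35, SE 0.28, adjusted p = 0.000311).

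Of 12 named genes of the branchial arches and the face, 8 were higher in Cn and 4 did not pass, with a median of 2.33. With the ring as background 3 of the 12 differences were below 0, beside 1 in the reported fit, and none passed. The 12 include Nts, a peptide precursor, and Krt14, a skin keratin, which are not patterning factors. Dlx1, Dlx2 and Dlx6, homeobox factors of both the arches and the ventral forebrain, counted in both groups. Dlx1 measured 8.48 and 9.32 in Cn and 4.41 and 4.56 in Tn (difference 4.42, SE 0.32, adjusted p = 0.000138 in limma), Dlx2 differed by 4.06 and Dlx6 by 2.47. Lhx8, a LIM homeobox factor of the jaw mesenchyme and of cholinergic neurons of the ventral forebrain, measured 7.48 and 7.49 in Cn and 2.65 and 3.38 in Tn (difference 4.47, SE 0.30, adjusted p = 8.95e-05). Nts, the precursor of the peptide neurotensin, measured 6.24 and 6.53 in Cn and 2.82 and 2.78 in Tn (difference 3.59, SE 0.30, adjusted p = 0.000331).

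Tcfap2c, Barx1 and Cart1 were also higher in Cn, by 2.60, 2.18 and 2.07. They fall outside the rule for naming genes and were added after their values had been seen, as were all others marked so below. Barx1 is a homeobox factor of the arch and tooth mesenchyme, and the study counts Cart1 and Lhx8 among mesenchymal markers. Krt14, a basal keratin of the skin, measured 9.34 and 9.24 in Cn and 8.69 and 8.58 in Tn, and its difference of 0.66 did not pass (adjusted p = 0.313 in limma). Barx1, Cart1 and Lhx8 were detected on both Cn arrays, at 7.09 and 6.84, 5.14 and 5.37, and 7.48 and 7.49. In the labelled crest fraction of the same region, Cp, they stood at 8.82 and 8.33, 7.07 and 7.05, and 8.63 and 8.20. The part of EGFP- cells of crest origin in these differences was not tested.

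In the trunk, 7 of 12 named regulators of the spinal cord and hindbrain were lower in Cn, none was higher and 5 did not pass, with a median of -1.60. Lbxcor1 (now Skor1), a corepressor of dorsal spinal interneurons, measured 3.52 and 3.84 in Cn and 7.95 and 8.61 in Tn (difference -4.60, SE 0.29, adjusted p = 5.74e-05 in limma). Pax8, a paired-box factor of spinal interneurons, the kidney and the thyroid, measured 1.74 and 2.01 in Cn and 6.10 and 6.51 in Tn (difference -4.43, SE 0.26, adjusted p = 3.57e-05). Msx3, a homeobox factor of the dorsal neural tube, measured 1.45 and 1.95 in Cn and 5.55 and 5.05 in Tn (difference -3.60, SE 0.30, adjusted p = 0.000331). Pax8 and Msx3 were each detected on 1 of 2 Cn arrays and on both Tn arrays.

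Tlx3, a selector of excitatory neurons in the dorsal horn and of sensory neurons, measured 4.0 and 4.28 in Cn and 6.74 and 6.53 in Tn (difference -2.49, SE 0.31, adjusted p = 0.00397 in limma). Lhx1, a LIM homeobox factor of spinal interneurons and of the nephric duct, differed by -2.29 (adjusted p = 0.00551). With Pax8 it made up the 2 genes lower in Cn of 5 named for the kidney and the urogenital ridge. Gbx2, a homeobox factor of the anterior hindbrain added after its values were seen, was lower too, by 1.53 units, at 4.85 and 5.01 in Cn against 6.54 and 6.39 in Tn. Foxd3, a forkhead factor of crest cells and of a class of spinal interneurons, differed by -1.66 (adjusted p = 0.0461), and this call was lost when any 1 array was left out.

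Of 8 named genes of the limb, the somites and the axial skeleton, 5 were lower in Cn and 3 did not pass, with a median of -1.80. Gdf5, a secreted factor of forming joints, measured 3.67 and 3.20 in Cn and 6.65 and 6.87 in Tn (difference -3.33, SE 0.27, adjusted p = 0.000282 in limma). Epyc and Mia1 (now Mia), secreted proteins of cartilage, differed by -2.25 and -1.77 (adjusted p = 0.00216 and 0.0105). Pax1, a paired-box factor of the sclerotome, measured 6.52 and 7.04 in Cn and 8.50 and 8.73 in Tn, a difference of -1.84 (SE 0.28, adjusted p = 0.0132), and did not pass after quantile normalization. Vgll2, a cofactor of muscle precursors, differed by -2.06 (adjusted p = 0.0162), with Cn at 6.32 and 6.48 and Tn at 8.24 and 8.68. All 5 probes were above the blank limit on the 4 arrays. Without Cn replicate 1 or Tn replicate 1, 2 of the 8 genes passed, and 3 without Cn replicate 2 or Tn replicate 2.

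Extracellular matrix genes gave 3 lower in Cn, none higher and 10 not passed of 13 named, with a median of -0.78. C1qtnf3, a secreted protein of cartilage, measured 3.29 and 3.24 in Cn and 7.84 and 7.09 in Tn (difference -4.20, SE 0.31, adjusted p = 0.000148 in limma). Kera, a proteoglycan known from the cornea, measured 5.18 and 5.24 in Cn and 6.72 on both Tn arrays (difference -1.51, SE 0.27, adjusted p = 0.0295), and Epyc was the third. The call of Kera was lost when any Cn, Tn or Cp array was left out. Thsd7a, with -1.25, did not pass (adjusted p = 0.0959).

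Of 5 named genes of Wnt signalling, 2 were higher in Cn and 3 did not pass. Besides Wnt8b, Rspo2, a secreted enhancer of Wnt signals that acts in the face and the limbs, measured 5.90 and 6.02 in Cn and 4.64 and 4.62 in Tn (difference 1.33, SE 0.25, adjusted p = 0.0392 in limma), a call lost when any Cn, Tn or Cp array was left out. Lgr5, an R-spondin receptor, measured 5.65 and 5.26 in Cn and 4.79 and 4.69 in Tn, and Celsr2, a planar polarity cadherin, 3.41 and 3.53 in Cn and 3.93 and 3.85 in Tn (adjusted p = 0.271 and 0.532).

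**Figure D3:**
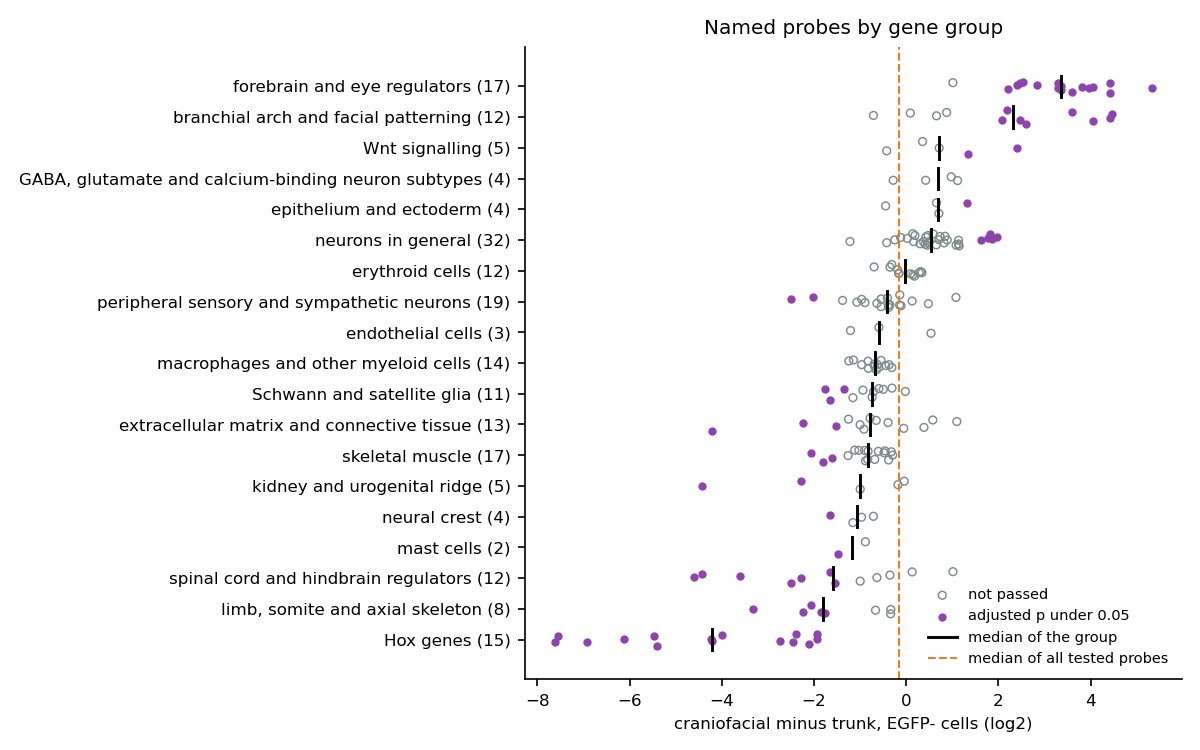
Difference between Cn and Tn (horizontal axis, log2) for the named probes of 19 gene groups, with the number of probes in brackets. Filled points had adjusted p under 0.05, open points did not, black bars are group medians and the dashed line is the median of all tested probes, -0.16. The forebrain and eye regulators (median 3.35) and the Hox genes (-4.21) stand at the 2 ends, and erythroid genes lie near 0 with no call.

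Markers of the cell types that an EGFP- gate can hold were read for all named members. Erythroid genes did not separate the regions. Their 12 probes of 10 genes gave no call, 6 differences were above 0 and 6 below, and the median was -0.03 (0.25 with the scan as a block, with 11 above 0), while 1 of the 12 probes had groups that did not overlap. At an unadjusted p of 0.05, 1 of the 12 passed, beside 11.6% of all tested probes. In both counts this was Cxcl4 (now Pf4, platelet factor 4), at 5.28 on both Cn arrays and 5.73 and 6.23 in Tn. Tal1, a factor of blood precursors, measured 5.70 and 5.51 in Cn and 5.45 and 6.46 in Tn. Hbb-b1, the adult beta globin, measured 15.28 and 14.90 in Cn and 14.47 and 15.02 in Tn on 1 of its 2 probes, and Alas2, the first enzyme of erythroid haem synthesis, 9.02 and 8.17 in Cn and 8.40 and 8.16 in Tn. The summed erythroid signal was 136482 and 104201 in Cn and 99981 and 122356 in Tn, against 1686 and 933 in Cp and 2601 and 2121 in Tp. The sums of the 2 EGFP- groups overlapped and all were far above those of EGFP+ cells.

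Of 17 skeletal muscle genes, 3 were lower in Cn and 14 did not pass, and all 17 differences were below 0 with a median of -0.83. Vgll2, Myoz1 and Chrna1 made up the 3. Myoz1, a protein of the Z-disc, measured 4.79 and 4.57 in Cn and 6.47 and 6.49 in Tn (difference -1.80, SE 0.25, adjusted p = 0.00786 in limma). Chrna1, a subunit of the muscle acetylcholine receptor, measured 3.89 and 3.49 in Cn and 5.33 and 5.26 in Tn (difference -1.61, SE 0.26, adjusted p = 0.0162). Myog, the myogenic factor of differentiation, measured 6.92 and 6.72 in Cn and 8.36 and 7.80 in Tn and did not pass (adjusted p = 0.0669). The summed muscle signal was 2343 and 1815 in Cn and 4459 and 3814 in Tn. None of the 3 passed when Cn replicate 2, Tn replicate 1 or Tn replicate 2 was left out, and 1 passed without Cn replicate 1 or with the scan as a block. With the ring as background 5 of the 17 differences were above 0.

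Of 14 macrophage and other myeloid genes none passed, although all 14 differences were below 0, with a median of -0.67, and in all 14 the groups did not overlap. Lower and without overlap is the state of 30.4% of all tested probes, and 8 of the 14 passed at an unadjusted p of 0.05, which 11.6% of all tested probes did. With the ring as background 2 of the 14 differences were above 0. Cd83, a surface protein of antigen-presenting cells, measured 4.78 and 4.53 in Cn and 5.79 and 6.0 in Tn (difference -1.25, adjusted p = 0.0567 in limma), and the chemokine Ccl4 measured 4.24 and 4.39 in Cn and 5.22 and 5.69 in Tn (adjusted p = 0.134). The summed myeloid signal was 609 and 599 in Cn and 854 and 1098 in Tn. Cpa3, the carboxypeptidase of mast cells, measured 5.41 and 6.13 in Cn and 7.20 and 7.32 in Tn (difference -1.48, adjusted p = 0.0424, lost when any array but Cn replicate 2 was left out), and Prg1, the granule proteoglycan serglycin, 5.40 and 5.59 in Cn and 6.45 and 6.31 in Tn (adjusted p = 0.126). The part of blood cells and muscle in the other results was not tested.

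Of 32 probes of 31 genes expressed in neurons in general, 5 were higher in Cn, none was lower and 27 did not pass, with a median of 0.54. Camk2b, a calcium-dependent kinase, measured 4.9 and 4.80 in Cn and 2.65 and 3.12 in Tn (difference 1.96, SE 0.25, adjusted p = 0.00501 in limma). Stmn4, a regulator of microtubules, measured 10.26 and 10.13 in Cn and 8.22 and 8.46 in Tn (difference 1.86, SE 0.26, adjusted p = 0.00763). Cntnap2, a cell adhesion protein of axons, and Gpm6a, a membrane protein of neurites, differed by 1.82 and 1.76 (adjusted p = 0.0126 and 0.0098), and Insm1, a zinc finger factor of newborn neurons added after its values were seen, by 1.63 (adjusted p = 0.0381). The summed signal of the list was 14636 and 14703 in Cn and 8485 and 8363 in Tn. With the ring as background 9 of the 32 differences were below 0, beside 4 in the reported fit, and 1 probe passed. Without Cn replicate 1, 1 of the 5 genes passed, and without Cn replicate 2 or Tn replicate 1, 2 did.

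Of 19 genes of peripheral neurons, 2 were lower in Cn, none was higher and 17 did not pass. Their median was -0.41, or -0.07 with the ring as background. Tlx3 was described above, and Gfra3, the receptor subunit for artemin, measured 3.32 on both Cn arrays and 5.64 and 5.05 in Tn (difference -2.03, SE 0.26, adjusted p = 0.0055 in limma). Neurod1, a basic helix-loop-helix factor of sensory neurons and of the brain, measured 8.97 and 8.57 in Cn and 7.38 and 8.0 in Tn and did not pass (adjusted p = 0.191). Neurod4, a related factor, measured 4.11 and 3.50 in Cn and 5.13 and 5.24 in Tn and did not pass either (adjusted p = 0.108).

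Among 11 genes of Schwann and satellite glia, 3 were lower in Cn, none was higher and 8 did not pass, with a median of -0.74. These were Mia1 and Foxd3, also counted above, and Cmtm5, a membrane protein, at 3.74 and 3.95 in Cn and 5.28 and 5.14 in Tn (difference -1.36, SE 0.25, adjusted p = 0.0324 in limma). Mia1, named above as a cartilage protein, measured 8.87 and 8.48 in Cp and 5.89 and 6.01 in Tp. It was the 1 gene of the 11 higher in Cp than in Tp, while 10 were lower, so it did not behave like the rest of this list. Without Cn replicate 1, Cn replicate 2 or Tn replicate 1, none of the 3 passed, and 1 did without Tn replicate 2 or either Cp array. Ednrb, the endothelin receptor of crest-derived cells, measured 4.92 and 5.03 in Cn and 6.26 and 6.01 in Tn (difference -1.16, adjusted p = 0.0559).

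The 4 named crest markers, Foxd3, Ednrb, Pax7 and Tcfap2a, served as a check of the label. Their summed signal was 50.3 and 51.0 in Cn and 121 and 104 in Tn. It was 126 and 121 in Cp and 1184 and 1043 in Tp. The sums were lowest in Cn and highest in Tp, while those of Tn were close to those of Cp. Ednrb was the brightest of the 4 on every array, so the sums mostly reflect this 1 gene. It measured 6.26 and 6.01 in Tn, 6.34 and 6.48 in Cp and 9.96 and 9.82 in Tp. None of the 4 was below the detection limit on all 4 EGFP- arrays. Tcfap2a, an AP-2 factor of crest and ectoderm, measured 2.71 and 2.87 in Tn against 1.5 and 1.38 in Cp. Pax7, a paired-box factor of crest, dorsal neural tube and muscle precursors, measured 3.26 and 3.24 in Cn and 4.43 and 4.0 in Tn and did not pass (adjusted p = 0.155 in limma). It was not above the detection limit on either Tp array. Foxd3 measured 4.02 and 4.07 in Tn against 3.72 and 3.09 in Cp. For Tcfap2a, Pax7 and Foxd3 an EGFP- group was therefore brighter than an EGFP+ group.

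**Figure D4:**
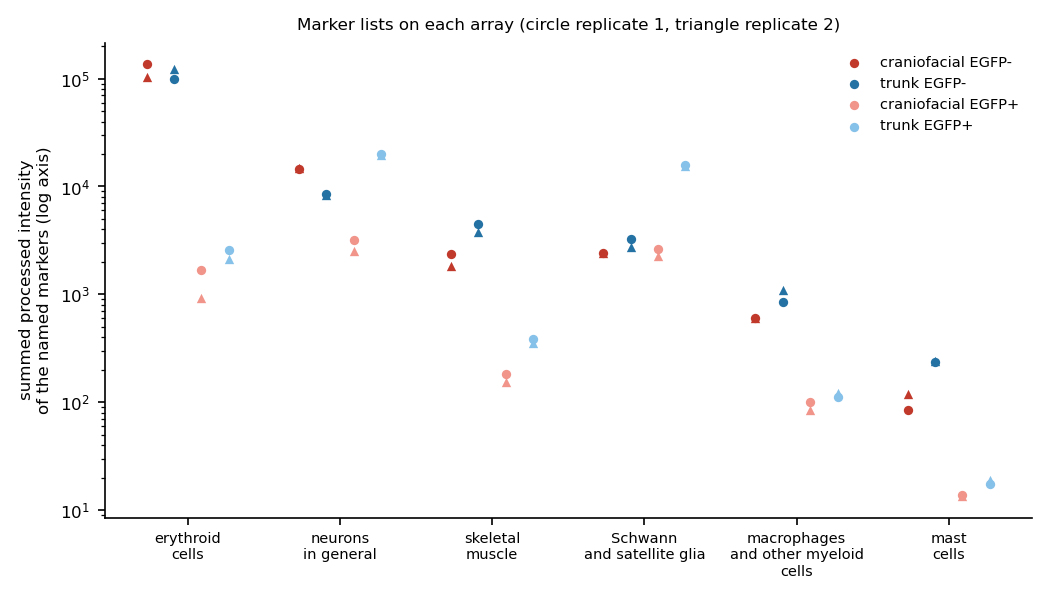
Summed processed intensity (vertical log axis) of the named markers of 6 cell types on each of 8 arrays, circles for replicate 1 and triangles for replicate 2. Erythroid signal is 99981 or more on every EGFP- array and at most 2601 on the EGFP+ arrays, and muscle, myeloid and mast cell signals are lower in Cn than in Tn.

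Of 4 named genes of epithelium and ectoderm, Ap1m2, an adaptor subunit of epithelial sorting, was higher in Cn at 6.57 and 6.22 against 5.27 and 4.9 (difference 1.31, SE 0.25, adjusted p = 0.0459 in limma). It failed the test when any 1 array was left out. Pkp3, a plakophilin of desmosomes, and Myo5b, a myosin of vesicle transport, did not pass (differences 0.71 and -0.45). Of 3 endothelial genes none passed. Fli1, an Ets factor of endothelium and blood, measured 3.49 and 3.59 in Cn and 4.9 and 4.60 in Tn (adjusted p = 0.0549), and Sox18 and Ramp2 differed by 0.54 and -0.59. The 4 genes of neuron subtypes did not pass either, with Calb2, or calretinin, at a difference of 1.11 (adjusted p = 0.0599), Gria1 at 0.98, Cartpt at 0.42 and Gabra4 at -0.28.

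The lists left out 116 named probes, of which 5 were higher and 8 were lower. Ckmt1, a mitochondrial creatine kinase, measured 5.45 and 4.95 in Cn and 1.72 and 1.82 in Tn (difference 3.42, SE 0.27, adjusted p = 0.000218 in limma). Slc14a1, a urea transporter, measured 3.53 and 3.51 in Cn and 6.89 and 6.72 in Tn (difference -3.29, SE 0.27, adjusted p = 0.000321). The others fall outside the naming rule and were added after their values were seen. Gldc, the glycine decarboxylase, Cdh22, Crym and Ppp2r2b were higher by 1.71, 1.61, 1.36 and 1.30. Phlda2, an imprinted gene that restrains placental growth, A330049M08Rik (now Ncmap), Fbp1, a gluconeogenic phosphatase, Ankrd13a, Saa1, 2810406K13Rik (now Klhl35) and Gnat3, the taste G protein gustducin, had differences of -2.40, -2.28, -2.10, -1.91, -1.83, -1.49 and -1.49.

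Whether these regional differences were those of the crest fractions was tested as the difference of differences, Cn over Tn minus Cp over Tp. This passed for 1220 of 21807 probes (5.59%), and for 171 of the 286 that separated Cn from Tn. The 286 were chosen by the difference between Cn and Tn, which is itself part of this contrast. A share above 5.59% among them therefore follows largely from that choice. None of the 15 Hox genes passed the difference of differences, whereas 15 of 17 forebrain and eye regulators did. Both sets come from the list that the study chose on these arrays by differences across the groups. A gene that entered it for a high level in Cn alone would pass nearly by construction. These counts are therefore no independent evidence. All 15 Hox genes were also lower in Cp than in Tp. Hoxa5 differed by -6.92 between the EGFP- groups and by -6.45 between the EGFP+ groups (difference of differences -0.47, adjusted p = 0.606 in limma), and Hoxb5 by -6.13 and -6.21 (0.09, adjusted p = 0.95). A p that misses the threshold does not show that the fractions were alike, and the widest gaps, -1.33 in Hoxd10 and -1.29 in Hoxb8, came with adjusted p of 0.0861 and 0.0926.

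Atoh7 stood at 2.84 and 2.85 in Cp and 2.90 and 2.69 in Tp, a difference of 0.05, and the gap to the EGFP- fraction was 5.28 (adjusted p = 0.000505 in limma). Lhx2 even differed in the opposite direction, by -1.48 between Cp and Tp against 2.53 between Cn and Tn (4.01, adjusted p = 0.000572). Dlx1 and Dlx2, which also serve the arches, stood at 7.75 and 7.93 and at 7.37 and 7.14 in Cp. In Tp they stood at 6.62 and 7.06 and at 7.27 and 6.60. Neither gene passed between Cp and Tp (adjusted p = 0.101 and 0.624 in limma), and the arrays of Dlx2 overlapped. Dlx6 and Sim1 were the 2 forebrain and eye regulators that did not pass the difference of differences.

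Genes of the list of arches and face split. Lhx8 differed by 4.47 in EGFP- and by 4.87 in EGFP+ cells (difference of differences -0.40, adjusted p = 0.749 in limma). Nts, the peptide precursor counted in that list, differed by 3.59 and 3.81 (-0.22, adjusted p = 0.882). Cart1 differed by 2.07 and 4.99, and this gap of -2.92 passed (adjusted p = 0.00149). Some genes of cartilage, matrix and the sclerotome differed in opposite directions in the 2 fractions. Pax1 was lower in Cn than in Tn by 1.84 units but higher in Cp than in Tp by 3.40 (difference of differences -5.23, adjusted p = 0.000572). Mia1 differed by -1.77 and 2.73 (-4.50, adjusted p = 0.000572), Epyc by -2.25 and 2.16 (-4.41, adjusted p = 0.000572) and Kera by -1.51 and 2.29 (-3.81, adjusted p = 0.00105). C1qtnf3 differed by -4.20 and -2.92, the same direction in both (-1.28, adjusted p = 0.152). Gdf5 measured 4.41 and 4.36 in Cp and 4.1 and 4.47 in Tp, all below its 2 Tn arrays.

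Of the 5 genes of neurons in general that were higher in Cn, 3 passed in the opposite direction between Cp and Tp, namely Stmn4, Camk2b and Insm1. Stmn4 was higher in Cn than in Tn by 1.86 but differed by -3.57 between Cp and Tp (difference of differences 5.43, adjusted p = 0.000505 in limma), Camk2b by 1.96 and -2.56 (4.52, adjusted p = 0.000572) and Insm1 by 1.63 and -3.50 (5.13, adjusted p = 0.000572). Cntnap2 differed by 1.82 and -0.03 (1.85, adjusted p = 0.0235). Of the 32 probes of neurons in general, 28 passed this test, as did 18 of the 19 of peripheral neurons. Over all tested probes 5.59% did. Between Cp and Tp, 27 of the 32 and all 19 passed as lower in Cp. These probes come from the list that the study chose on the same arrays, so such counts are no independent evidence. By contrast Gpm6a differed by 1.76 and 1.58 (0.19, adjusted p = 0.882). Of the list of the spinal cord and hindbrain, Pax8, Msx3 and Lbxcor1 were dim in EGFP+ trunk cells. Not all of the list was, since Tlx3 measured 9.83 and 9.03 in Tp and Foxd3 7.40 and 6.96. The summed signal of the 12 probes of the list was 2075 and 1732 in Tp and 1109 and 1396 in Tn. Pax8 measured 1.17 and 1.34 in Tp, Msx3 1.83 and 1.55 and Lbxcor1 2.52 and 2.68, against at least 5.05 for these 3 genes in Tn. The difference of differences of Lbxcor1 was -3.52 (adjusted p = 0.00176). That of Pax8 was -4.20 (adjusted p = 0.000745), with 1 of 2 Cp and 1 of 2 Tp arrays above the detection limit. Msx3 was above it on neither Cp array.

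**Figure D5:**
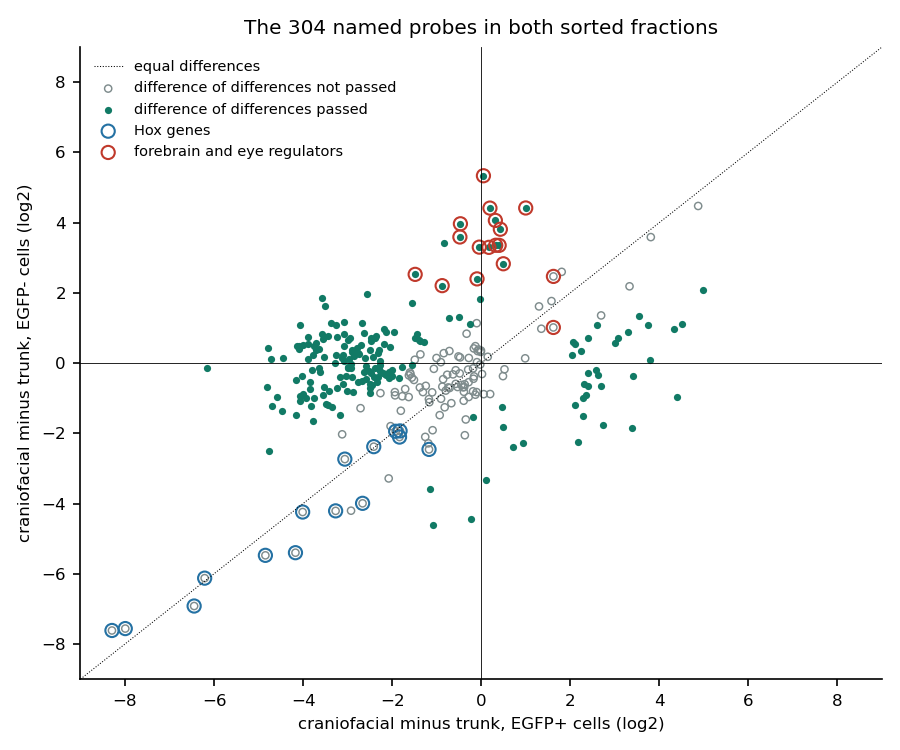
Difference between craniofacial and trunk cells in the EGFP+ fraction (horizontal axis, log2) and in the EGFP- fraction (vertical axis, log2) for the 304 named probes. Filled points passed the test of the difference of differences, and the dotted line marks equal differences. The 15 Hox genes (blue rings) lie near the line with none passing, and 15 of the 17 forebrain and eye regulators (red rings) lie above it and passed. All come from a list chosen on these arrays.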

How the data were processed

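Of 9 arrays, 8 entered the fit; Tp replicate 3 is not among those the study analysed. The authors deposited scanner intensity for each spot and processed intensity values, which are linear and follow spot signal minus blank level times a factor per array; their formula is not stated. The study describes its arrays as biologically duplicated; how embryos were divided between replicates is not given in the sources used here. Empty cells took the lowest value of their array, except those of bad-marked spots or spots over 1.5 times the limit, left missing (8 tested probes on the 4 arrays, none named). A probe was kept when detected on 2 or more of the 8 arrays (21807 of 23473). The log2 of the deposited values entered 1 limma fit of 4 groups (3.58.1, R 4.3.3; 4 residual degrees of freedom; Benjamini-Hochberg over all kept probes). Names come from the study's probe list; RefSeq holds the symbol of 299 of 304 named probes; 2 other probes of the list are not reported here. Named in the text are the 15 highest and 15 lowest named differences that passed without overlap, all Hox genes and forebrain and eye regulators, and up to 4 members of each other list. Members and lists were chosen with earlier results of these data known. In data simulated for this comparison (21788 probes), 0% of 200 probes changed by 1 were recovered and 63% of those changed by 2, with 6 false calls. Alternatives covered background, normalization, filters, an added constant, blocks, moderation and arrays left out.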

Additional observations from a re-analysis of the deposited data

Results flagged for a closer look

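For 50 of the genes named by rule the difference between craniofacial and trunk cells was not the same in EGFP- as in EGFP+ cells, by limma's test of the difference of differences with adjusted p under 0.05. These genes come from the list chosen on the same arrays, so their number is no independent evidence. Values are log2, Cn over Tn minus Cp over Tp. A positive value means a regional difference further towards the head in EGFP- than in EGFP+ cells. It can come from either fraction. Among forebrain and eye regulators the values were Atoh7 5.28, Dmrta2 4.43, Otx1 4.22, Emx1 4.07, Lhx2 4.01, Dlx2 3.74, Dlx1 3.42, Fezf1 3.38, Fezf2 3.34, Otx2 3.12, Fgf15 3.08, Olig2 3.03, Aldh1a1 2.95, Wnt8b 2.49 and Six6 2.33. Among genes of neurons they were Stmn4 5.43, Cartpt 5.22, Neurod1 5.15, Camk2b 4.52, Neurod4 3.10, Cntnap2 1.85, Celsr2 1.66 and Calb2 1.37. Epithelial genes gave Pkp3 2.20, Myo5b 2.14, Krt14 2.06 and Ap1m2 1.81, and the mitochondrial kinase Ckmt1 gave 4.26. Among these neuronal and epithelial genes, Neurod4, Celsr2 and Myo5b were lower in Cn than in Tn, by -1.38, -0.42 and -0.45, without a call. Cartpt, Neurod1, Calb2, Pkp3 and Krt14 were higher in Cn, also without a call. Genes that were brighter in trunk EGFP+ than in craniofacial EGFP+ cells, with a smaller gap between the EGFP- groups, gave Lhx9 2.93, Ednrb 2.32, Tlx3 2.26, Foxd3 2.11, Thsd7a 2.09 and Tcfap2a 1.80. On the negative side, genes of cartilage, sclerotome and joints gave Pax1 -5.23, Mia1 -4.50, Epyc -4.41 and Gdf5 -3.43, and the matrix gene Kera gave -3.81. Of the spinal and hindbrain regulators, Pax8 gave -4.20, Lbxcor1 -3.52 and Msx3 -2.45. Lhx9, Tlx3 and Foxd3 belong to the same list and had the positive values given above. The endothelial genes gave Fli1 -3.31, Ramp2 -2.91 and Sox18 -1.57. The remaining values were Pax7 -5.36, Gabra4 -2.68, Rspo2 -2.22, Cd83 -1.70 and Lgr5 -1.68. Pax7 was above the detection limit on neither Tp array and Msx3 on neither Cp array, so the sizes of these 2 values rest on a group at background. Emx1 and Pax8 were above it on 1 of 2 Cp and 1 of 2 Tp arrays, and Lhx9 and Tcfap2a on 1 of 2 Cp arrays. Their values rest partly on groups near background. With the ring as background, 8 probes passed this test with a positive value and 0 with a negative one, so these 50 values hold for the processed intensities.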

How the results depend on the processing

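Of the comparison of Cn with Tn, 120 probes higher and 166 lower became 5 and 2 with the ring as background, and 5 and 14 in a linear model without moderation. Without adjustment, 2600 and 2310 probes had a p under 0.05 there, and 2524 in the reported fit. With the blank level as background and normexp (offset 50), 94 were lower, and with the replicate number as a block 289 were lower. Leaving out 1 array gave 53 to 112 higher and 70 to 165 lower. Both counts moved by over 1.5 times without Cn replicate 1 (54 and 70), Tn replicate 1 (53 and 100) and Tn replicate 2 (72 and 93). The difference of differences passed for 691 probes with a positive and 529 with a negative value. On ring-corrected signal limma gave 8 and 0, while 1824 probes had an unadjusted p under 0.05. These counts became 1140 and 1255 with the scan as a block, and 152 and 97 without moderation. The replicate block gave 812 negative values, and leaving out 1 array gave 376 to 573 positive and 202 to 388 negative. The replicate numbers do not pair the samples by their labels (deviations of same-numbered arrays correlated at 0.085 between Cn and Tn and at 0.162 to 0.451 between the other 5 pairs of groups), so the block is given here only. With it Myog, Cd83, Fli1, Ednrb, Calb2 and Thsd7a, which had not passed, did so, at adjusted p of 0.0421 to 0.0458 in limma.

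Quantile normalization moved the median difference of all probes from -0.16 to -0.004, and the share of higher calls from 42.0% to 54.4% (174 higher, 146 lower). Of the 90 probes named by rule, 59 had passed. None changed sign with a call on either side. The ring cost 56 their call, the model without moderation 52, and the scan as a block 10. The cause was not tested. With 2 arrays per group, changes of 1 log2 unit were beyond reach, and dim probes limit what Cn replicate 2 can show.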
